A study of Homo sapiens with 6 samples.

Results

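Respiratory complex I is described here through its genes in SW620, a human colorectal cancer cell line derived from a lymph node metastasis. The genes were chosen by name, as every gene of the count table whose symbol starts with NDUF or MT-ND. There were 55 among 20476 genes. They comprised 37 nuclear subunit genes, 8 assembly factor genes (NDUFAF1 to NDUFAF8), 7 mitochondrially encoded subunit genes (MT-ND), NDUFA4 and its relative NDUFA4L2, and the readthrough gene NDUFC2-KCTD14. Counts were deposited for 6 libraries. In 3 the line had a stable ECM1 knockdown by a hairpin (shECM1), and in 3 it had a negative control hairpin (shNC), so every library came from hairpin-carrying SW620 cells. The vector, the hairpin sequences, and whether each line was a clone or a pool are not stated in the labels. The table's columns were matched to these groups by letter and number, which is an inference, and the opposite reading would turn every direction given here. The targeted gene, given below, was lower in each of the 3 libraries read as shECM1 than in each of the 3 read as shNC.

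Complex I is the entry point of the respiratory chain. It takes electrons from NADH to ubiquinone and pumps protons across the inner mitochondrial membrane. Its matrix arm holds the N module, which oxidises NADH, and the Q module, which reduces quinone, and its membrane arm holds the proton-pumping modules built around the MT-ND proteins. The catalytic core is shared with bacteria, while the accessory subunits surround it and are needed for its stability, and assembly factors act on intermediates and leave before the complex is finished. Nuclear and mitochondrial genes must both be expressed, and colorectal cancer cells can use this respiration beside glycolysis.

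Library totals ran from 9881720 to 16813951 counts, and 12576 genes passed the count filter. ECM1, the targeted gene, was at 38.8, 19.0 and 52.3 CPM (counts scaled to a common effective library total) in shNC replicates 1, 2 and 3. It was at 14.8, 13.6 and 8.41 CPM in shECM1 replicates 1, 2 and 3. The summed level of 10 colorectal epithelial markers was 10645 to 15337 CPM in shNC and 10320 to 11665 CPM in shECM1. Most of it came from KRT8 (means of 7441 and 6183 CPM) and KRT18 (4004 and 3267 CPM), which are not particular to the intestine. CDX1 had 1 count, in shNC replicate 3, and 0 in every other library. Means were also low for LGALS4 (0.790 and 0.862 CPM) and KRT20 (1.40 and 1.13 CPM). Of the remaining markers, CDH1 (831.3 and 618.1 CPM), EPCAM (471.6 and 518.6 CPM) and VIL1 (382.9 and 342.7 CPM) had higher means. CDX2 was at 14.6 and 18.1 CPM, and CDH17 at 7.56 and 5.66 CPM. Summed markers of other cells were low and mostly lower in shECM1, and few genes made up most of each sum. For CD68 (immune) the means were 121.1 CPM in shNC and 58.6 in shECM1, and for PAX8 (kidney) 34.9 and 30.1. For COL1A1 and LUM (fibroblast) they were 17.6 and 8.38, and 10.8 and 9.23. For VWF and ENG (endothelial) they were 7.83 and 6.11, and 7.55 and 5.60. The 10 fibroblast markers summed to 23.8 to 36.1 CPM in shNC and 16.8 to 21.3 CPM in shECM1, with COL3A1, PDGFRA and FAP at 0 counts in every library. The 10 immune markers summed to 75.1 to 192.4 and 48.9 to 77.8 CPM, with PTPRC, CD3E and MS4A1 at 0. The 8 endothelial markers summed to 17.2 to 20.2 and 13.3 to 14.9 CPM, with KDR and EMCN at 0, and the 8 embryonic kidney markers to 37.1 to 39.8 and 30.6 to 36.8 CPM, with NEFM, NEFL and INA at 0. The part of these cell types in the values below was not tested. Fewer cells of a type and less RNA per cell cannot be told apart in such libraries, nor can expression of these genes by SW620 cells themselves. The genes were proposed for description because NDUFAF2 stood out in this same comparison of shECM1 with shNC, so the differences below describe these libraries and support nothing further.

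By fitted value, nuclear complex I genes were slightly higher in shECM1, and the mitochondrially encoded ones were split. Of the 55 genes, 53 passed the count filter, all but NDUFA7 and NDUFC2-KCTD14. Of the 53, 47 had a positive log2 fold change (shECM1 minus shNC), against 51.4% of all genes tested, and 6 had a negative one, against 48.6%. The median log2 fold change was 0.21 over 36 nuclear subunits and 0.30 over the 8 assembly factors. It was -0.13 over the 7 MT-ND genes and 0.01 over all genes tested. edgeR's quasi-likelihood test called none of the 53 after Benjamini-Hochberg adjustment over all genes, where it called 0% of all genes tested. At an unadjusted p under 0.05 it had 13 of the members higher, against 8.31% of all genes tested, and 2 lower, against 14.2%. DESeq2 called 2 members higher, NDUFAF2 and NDUFAF4, against 0.910% of all genes, and 0 lower, against 4.78%. edgeR with no count filter called the same pair, against 0.256% of all genes higher, and 0 lower, against 2.83%. Without shNC replicate 2, edgeR called 10 members higher, against 9.73% of all genes, and 1 lower, against 14.1%. The 10 were NDUFAF2, NDUFAF4, NDUFAF8, NDUFAB1, NDUFB7, NDUFB9, NDUFS6, NDUFA4, MT-ND2 and MT-ND3, and the 1 was NDUFA4L2.

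**Figure D1:**
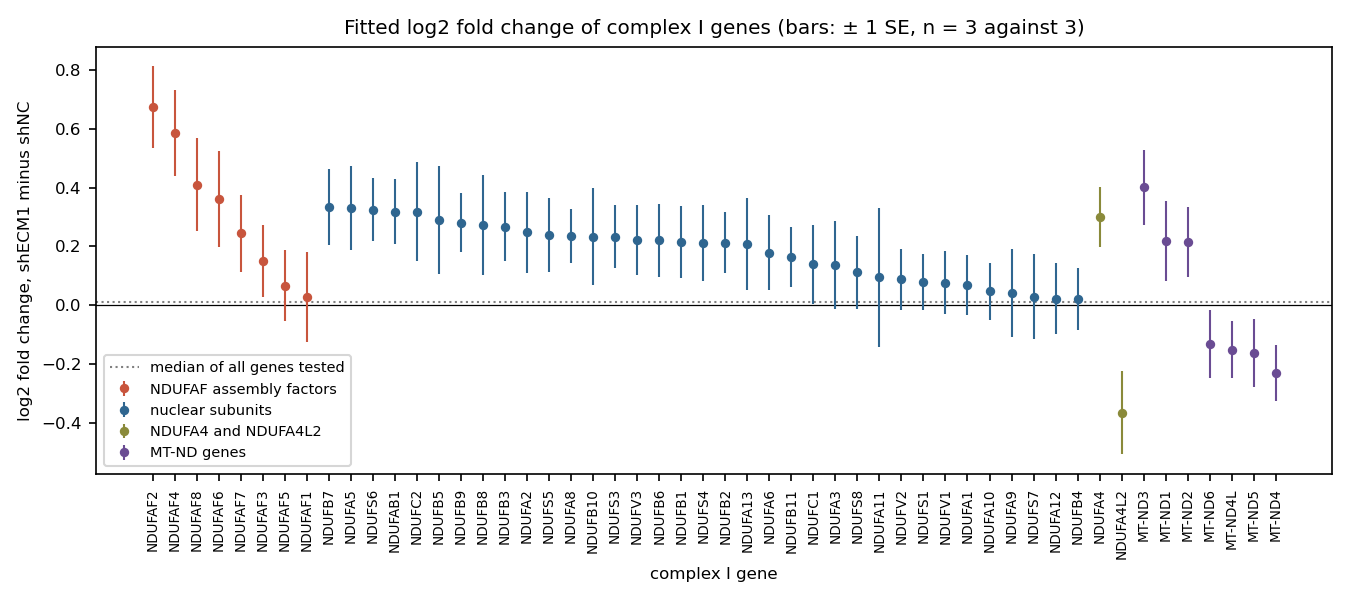
Fitted log2 fold change (shECM1 minus shNC, y axis) of 52 of the 53 tested genes (x axis), coloured by class, with bars of 1 SE and a dotted line at the median of all genes tested. NDUFAF2 is highest at 0.67, the 35 nuclear subunits drawn lie above 0, and the MT-ND genes split into 3 above and 4 below.

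NDUFAF2 (ENSG00000164182, GRCh38 chromosome 5, 60945129 to 61153037, plus strand) encodes a chaperone that sits on a late assembly intermediate in the place of its paralog NDUFA12. Its level was 25.0, 32.0 and 24.6 CPM in shNC replicates 1, 2 and 3, and 42.2, 47.7 and 40.0 CPM in shECM1 replicates 1, 2 and 3. Every shECM1 library lay above every shNC library, and shNC replicate 2 was the highest control. The means were 27.2 ± 4.17 and 43.3 ± 3.94 CPM (SD, n = 3 each), and the log2 fold change was 0.67 ± 0.14 (SE). These levels rested on 295 to 800 counts per library.

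NDUFA12, the accessory N-module subunit that takes the paralog's place in the finished complex, did not show this pattern. It was at 79.1, 78.7 and 91.9 CPM in shNC and 87.4, 92.3 and 74.0 CPM in shECM1. The groups overlapped, and the log2 fold change was 0.023 ± 0.12 (SE), which turned to -0.055 with a correction for GC content. The count of NDUFAF2 over that of NDUFA12 within a library, a ratio that needs no normalisation, was 0.33 ± 0.07 in shNC and 0.51 ± 0.03 in shECM1 (SD, n = 3 each). It ran from 0.267 to 0.406 in shNC and from 0.483 to 0.541 in shECM1, with no overlap.

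NDUFAF4 works with NDUFAF3 in the early assembly of the Q module with the membrane arm. NDUFAF4 was at 13.5, 16.2 and 13.7 CPM in shNC and 20.7, 24.2 and 20.0 CPM in shECM1, with no overlap and a log2 fold change of 0.59 ± 0.15 (SE). Its partner NDUFAF3 was at 40.1, 38.2 and 37.01 CPM in shNC and 38.3, 41.5 and 48.0 CPM in shECM1. Those groups overlapped, and the log2 fold change was 0.15 ± 0.12 (SE), or 0.057 without shECM1 replicate 3. The partners had opposite base composition, with a transcript GC content of 36.3% for NDUFAF4 and 61.1% for NDUFAF3. A per-library correction for the trend on GC brought them closer, to 0.42 for NDUFAF4 and 0.36 for NDUFAF3. NDUFAF4 also has 4 pseudogenes by name in GENCODE, and reads shared with them make its count uncertain.

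**Figure D2:**
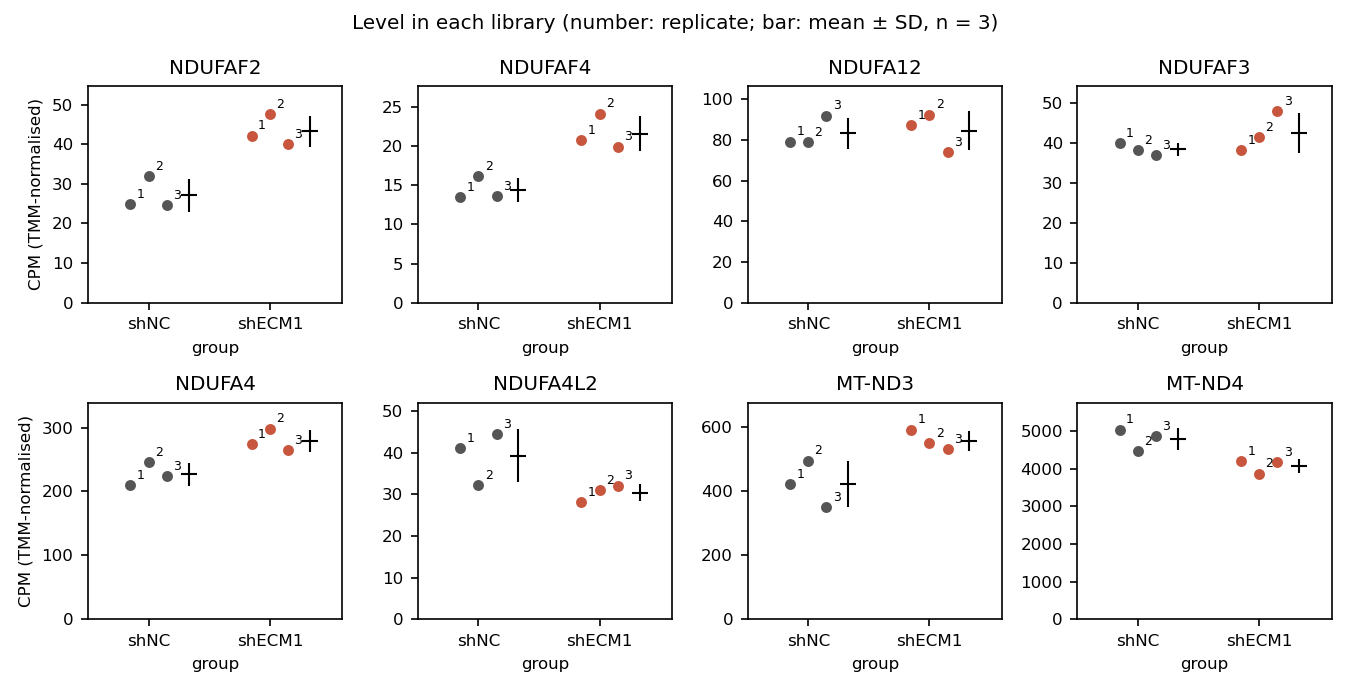
Level in CPM (y axis, from 0) of 8 genes in each library of the 2 groups (x axis); points carry the replicate number and bars show the mean ± SD of 3 libraries. NDUFAF2, NDUFAF4, NDUFA4 and MT-ND3 are higher in every shECM1 library, NDUFA4L2 and MT-ND4 are lower in every one, and NDUFA12 and NDUFAF3 overlap.

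The other assembly factors spread between these values and 0. NDUFAF8, a small partner that stabilises NDUFAF5, was at 18.9, 24.6 and 18.1 CPM in shNC and 23.5, 27.5 and 30.7 CPM in shECM1. Its groups overlapped through shNC replicate 2, and its log2 fold change was 0.41 ± 0.16 (SE), or 0.60 with the GC correction. NDUFAF5, which hydroxylates the core subunit NDUFS7, had a log2 fold change of 0.066 ± 0.12 (SE), and NDUFS7 itself one of 0.029 ± 0.14. With the GC correction NDUFAF5 turned to -0.025 and NDUFS7, whose transcript has a GC content of 66.8%, moved to 0.30.

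NDUFAF7, a mitochondrial methyltransferase needed for complex I assembly, had a log2 fold change of 0.24 ± 0.13 (SE), or 0.15 with the GC correction and 0.16 without shNC replicate 1. NDUFAF6, needed for early membrane-arm assembly, was at 9.23 to 10.7 CPM in shNC and 11.2 to 14.4 CPM in shECM1, with a log2 fold change of 0.36 ± 0.16. Both had groups that did not overlap. NDUFAF1, a member of the membrane-arm assembly complex, had means of 14.6 ± 0.679 CPM in the controls and 14.9 ± 2.04 CPM in shECM1 (SD, n = 3 each). Its log2 fold change was 0.029 ± 0.15 (SE), which turned to -0.028 with the GC correction. In all, 4 of the 8 factors had shECM1 libraries wholly above shNC, against 11.2% of all genes tested.

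Assembly factors named otherwise were described from a list of 15 genes, all of which were tested. The log2 fold change was positive in 14 of them, against 51.4% of all genes tested, and the list's median was 0.18. TMEM126B, a partner of NDUFAF1, was at 75.5, 90.6 and 69.9 CPM in shNC and 110.7, 115.4 and 96.4 CPM in shECM1, with no overlap and a log2 fold change of 0.45 ± 0.12 (SE), or 0.29 with the GC correction. It was the 1 gene of the list that DESeq2 called, against 0.910% of all genes called higher. DMAC1, a factor of the distal membrane arm, had a log2 fold change of 0.40 ± 0.18 with overlapping groups. It was 0.21 without shECM1 replicate 3, and 0.58 and called by edgeR without shNC replicate 2. COA1 and DMAC2 had the lowest values, at 0.066 ± 0.10 and -0.0061 ± 0.13 on the log2 scale, and DMAC2 turned positive in several alternatives.

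Among nuclear subunits the differences were small and nearly all in 1 direction. Of 36 tested, 35 had a positive log2 fold change, between 0.020 and 0.33. Their transcripts were short, with a median length of 766 bases for the 37 subunits against 2515 over all genes tested. Whether fold change followed length was not tested. In 11 of the 36 every shECM1 library lay above every shNC library, against 11.2% of all genes tested, and in 0 did every one lie below, against 13.2%. Summed over all 37, these genes took 0.281%, 0.302% and 0.289% of the counts of the shNC libraries. They took 0.317%, 0.331% and 0.337% in shECM1, with no overlap.

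The 5 highest fold changes belonged to NDUFB7, NDUFA5, NDUFS6, NDUFAB1 and NDUFC2. NDUFB7, an accessory subunit on the intermembrane side, was at 56.6, 65.8 and 62.5 CPM in shNC and 65.9, 77.3 and 89.8 CPM in shECM1. The groups were separated by the narrow step from shNC replicate 2 to shECM1 replicate 1. Its log2 fold change was 0.33 ± 0.13 (SE), or 0.58 with the GC correction and 0.22 without shECM1 replicate 3. NDUFS6, a zinc-binding accessory subunit of the N module, was at 79.2, 89.5 and 88.8 CPM in shNC and 101.5, 104.7 and 116.5 CPM in shECM1, with no overlap and a log2 fold change of 0.33 ± 0.11.

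NDUFAB1, the mitochondrial acyl carrier protein, which is also needed for iron-sulfur cluster and lipoic acid synthesis, was at 72.3, 83.4 and 71.9 CPM in shNC and 88.6, 92.3 and 102.8 CPM in shECM1. Its groups did not overlap, and its log2 fold change was 0.32 ± 0.11 (SE). NDUFA5, an accessory subunit of the Q module, had a log2 fold change of 0.33 ± 0.14 with overlapping groups. Its transcript is the poorest in GC among the members at 34.6%, it has 12 pseudogenes by name, and the GC correction reduced the value to 0.14. NDUFC2, a membrane-arm subunit, had a log2 fold change of 0.32 ± 0.17 from 105 to 205 counts per library.

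At the lower end of the positive values stood NDUFB4 at 0.020 ± 0.11 (SE), NDUFA12 at 0.023 ± 0.12, NDUFS7 at 0.029 ± 0.14 and NDUFA9 at 0.041 ± 0.15 on the log2 scale. NDUFB4 belongs to the ND4 module of the membrane arm, and NDUFA9 lies at the join of the arms. With the GC correction, NDUFB4 and NDUFA9 turned to -0.043 and -0.026, and each of the 4 turned negative in at least 1 fit that left out a library.

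The 7 nuclear core subunits had a median log2 fold change of 0.079, and the 29 tested accessory subunits one of 0.22. Without shECM1 replicate 3 the core median was -0.0099. This order did not survive the GC correction, which put the core at 0.28 and the accessory subunits at 0.23. Core transcripts had a median GC content of 54.3% and accessory transcripts 49.9%, against 50.3% over all genes tested. Across all genes tested with a GC value, log2 fold change and GC content had a Pearson r of -0.39 and a Spearman rho of -0.40 (12502 genes, sharing the same 6 libraries), and across 46 nuclear members an r of -0.30 and a rho of -0.22. By module, with the MT-ND genes counted in the membrane modules, the ND5 module had the highest median at 0.27 (7 genes), with 6 of the 7 wholly above shNC, against 11.2% of all genes tested. The N module had 2 such genes and each of the other 4 modules 1. The ND4 module had a median of 0.22 (7 genes), the ND1 module 0.21 (5), the N module 0.18 (9), the ND2 module 0.12 (10) and the Q module 0.11 (5). The difference between modules was not tested, and the Q module moved to 0.30 with the GC correction.

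Library by library, the controls were not alike. For each gene the mean log2 CPM of the 6 libraries was subtracted, and the median over a class was taken. For nuclear subunits this gave -0.18, -0.069 and -0.013 for the controls in order of number, and 0.0061, 0.13 and 0.097 for shECM1. The step between shNC replicate 3 and shECM1 replicate 1 was thus small beside the spread within either group. For assembly factors it gave -0.22, -0.056 and -0.20 in shNC and 0.15, 0.14 and 0.19 in shECM1, with shNC replicate 2 the control nearest to shECM1. For the MT-ND genes it gave 0.14, 0.041 and -0.023 in shNC and -0.050, -0.16 and 0.14 in shECM1, and the groups overlapped. Over all genes tested, 68.2% had shNC replicate 2 nearer to the shECM1 mean than to the mean of the other controls. Of the nuclear subunits 12 of 36 did, of the assembly factors 3 of 8, and of the MT-ND genes 5 of 7. The median SD of log2 CPM was 0.11 within shNC and 0.13 within shECM1 over the 53 members, against 0.17 and 0.16 over all genes tested.

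**Figure D3:**
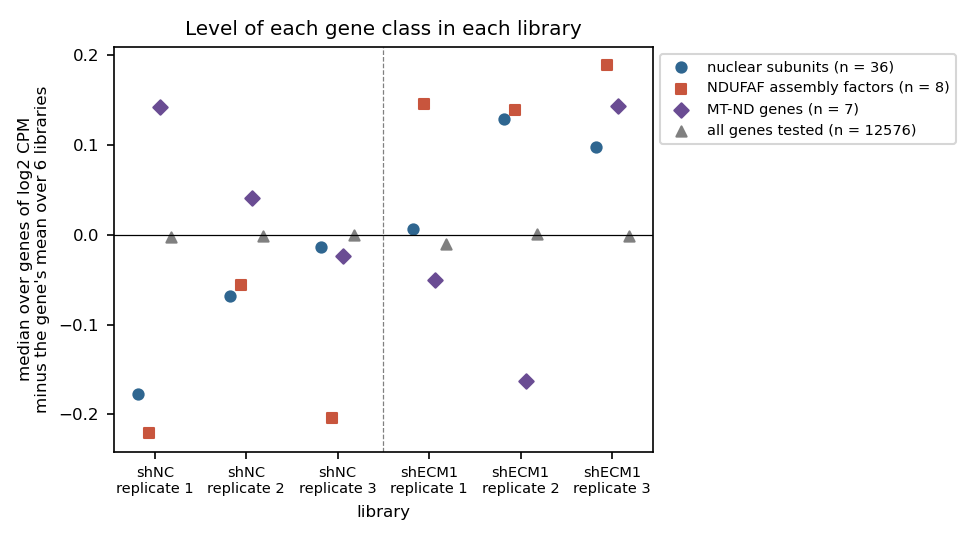
Median over the genes of a class of log2 CPM minus the gene's own mean over 6 libraries (y axis), for each library (x axis). Nuclear subunits and assembly factors lie higher in the 3 shECM1 libraries than in the 3 shNC libraries, while the MT-ND genes show no such order.

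The mitochondrially encoded genes were split by fitted value, with 3 of 7 higher in shECM1 and 4 lower, and edgeR on all libraries called 0 of them. They are read from long transcripts of both strands of the mitochondrial genome that are then cut into separate messages. In shNC they held 1.06% to 1.20% of counts and in shECM1 1.01% to 1.18%. MT-ND3 was at 422.0, 496.2 and 350.2 CPM in shNC and 593.2, 550.6 and 531 CPM in shECM1, with no overlap and a log2 fold change of 0.40 ± 0.13 (SE). That value was 0.28 with the GC correction, 0.28 without shNC replicate 3 and 0.54 without shNC replicate 2. MT-ND4 was at 5049, 4475 and 4865 CPM in shNC and 4210, 3872 and 4176 CPM in shECM1, with every shECM1 library below and a log2 fold change of -0.23 ± 0.10. MT-ND3 alone of the 7 lay wholly above and MT-ND4 alone wholly below. These shares are near the 11.2% and 13.2% of all genes tested.

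MT-ND1 and MT-ND2, subunits at the heel and in the middle of the membrane arm, had log2 fold changes of 0.22 ± 0.14 and 0.22 ± 0.12 (SE). MT-ND1 was at 0.071 without shECM1 replicate 3 and 0.34 without shNC replicate 2. MT-ND2 was at 0.12 without shNC replicate 3, at 0.13 with the GC correction, and at 0.34 and called without shNC replicate 2. MT-ND4L, MT-ND5 and MT-ND6 were at -0.15 ± 0.10, -0.16 ± 0.12 and -0.13 ± 0.12. Without shECM1 replicate 3 MT-ND5 and MT-ND6 were at -0.29 and -0.24, and without shECM1 replicate 1 at -0.093 and -0.066. MT-ND6 was also at -0.065 without shNC replicate 1, at -0.080 without shECM1 replicate 2 and, with the GC correction, at -0.22, as MT-ND4L was at -0.24. MT-ND5 was at -0.11 without shECM1 replicate 2. In these 5 genes the groups overlapped. Of 6 other mitochondrially encoded protein genes, 2 were positive, and the median was -0.094. MT-ATP8 and MT-CO3 had the highest values at 0.23 ± 0.12 and 0.087 ± 0.12, and MT-CYB and MT-CO1 the lowest at -0.22 ± 0.14 and -0.19 ± 0.12. MT-ATP8 was at 0.091 with the GC correction and 0.12 without shECM1 replicate 1. MT-CYB ran from -0.40 without shECM1 replicate 3 to -0.11 without shECM1 replicate 1, and was at -0.13 without shNC replicate 1. MT-CO1 ran from -0.29 to -0.12 when the same shECM1 libraries were left out.

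Count ratios within a library were chosen after the values were seen. They rest on the same counts, so they restate the differences above and are no separate support. The count of MT-ND3 was 0.0836, 0.111 and 0.0720 of that of MT-ND4 in shNC, and 0.141, 0.142 and 0.127 in shECM1, so the groups did not overlap. The ratio of MT-ND2 to MT-ND4 was 0.164 to 0.240 in shNC and 0.256 to 0.278 in shECM1. MT-ND4L shares its message with MT-ND4, and their ratio differed little, at 0.217 to 0.220 in shNC and 0.2274 to 0.2365 in shECM1, though the groups did not overlap. MT-ND6 lies on the minus strand (mitochondrial bases 14149 to 14673), directly beyond MT-ND5 on the plus strand (12337 to 14148). Its count was 0.267 to 0.280 of that of MT-ND5 in shNC and 0.276 to 0.282 in shECM1. Whether counting used strand is not given, so reads of MT-ND6 and of antisense transcripts there cannot be told apart.

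**Figure D4:**
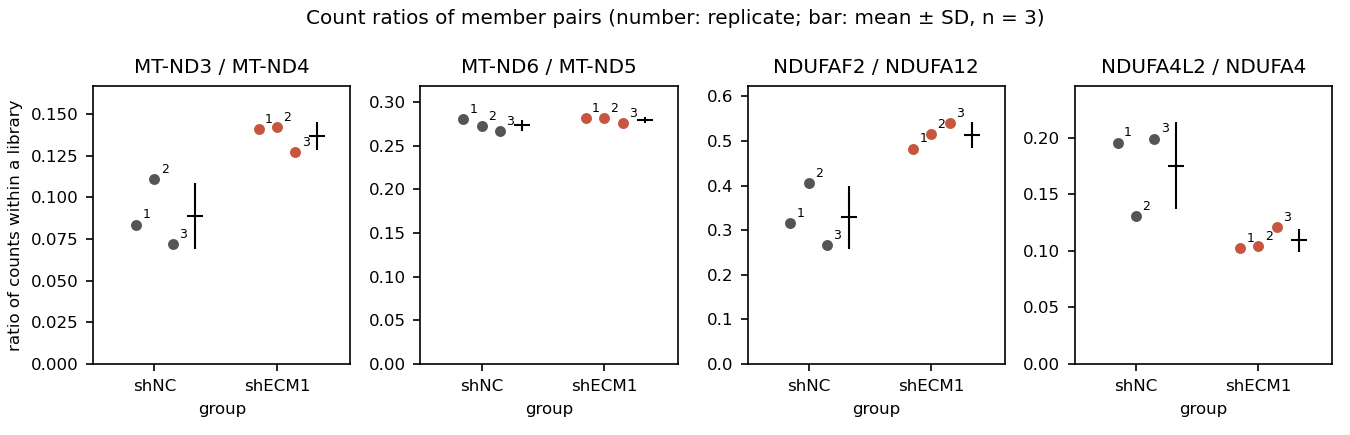
Ratio of the counts of 2 genes within a library (y axis, from 0), for each library of the 2 groups (x axis); points carry the replicate number and bars show the mean ± SD of 3 libraries. MT-ND3 over MT-ND4 and NDUFAF2 over NDUFA12 are higher in every shECM1 library, NDUFA4L2 over NDUFA4 is lower in every one, and MT-ND6 over MT-ND5 stays between 0.267 and 0.282.

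NDUFA4 and NDUFA4L2 differed in direction. NDUFA4 was first counted as a complex I subunit and is now placed in complex IV, and NDUFA4L2 is a relative that is induced in low oxygen. NDUFA4 was at 210.2, 245.8 and 223.6 CPM in shNC and 273.9, 298.4 and 265 CPM in shECM1, with a log2 fold change of 0.30 ± 0.10 (SE). NDUFA4L2 was at 41.1, 32.2 and 44.5 CPM in shNC and 28.1, 31.1 and 32.1 CPM in shECM1, with a log2 fold change of -0.37 ± 0.14. In both the groups did not overlap, though shNC replicate 2 lay just above the highest shECM1 library for NDUFA4L2. Within a library, NDUFA4L2 had 0.196, 0.131 and 0.199 of the count of NDUFA4 in shNC and 0.103, 0.104 and 0.121 in shECM1. Both are among the genes edgeR called without shNC replicate 2, a fit that called 9.73% of all genes higher and 14.1% lower.

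Regulators of the expression of nuclear and mitochondrial respiratory genes were described from a list of 14. Not all of them drive transcription, as SLIRP and LRPPRC bind mitochondrial RNA. The log2 fold change was positive in 12, against 51.4% of all genes tested, and the median was 0.29. DESeq2 called 2 higher, the transcription factor TFAM and the RNA-binding SLIRP, against 0.910% of all genes. TFB2M, a mitochondrial transcription factor, was at 16.9, 22.5 and 13.5 CPM in shNC and 27.8, 24.1 and 26.1 CPM in shECM1, with no overlap and a log2 fold change of 0.56 ± 0.18 (SE). PPRC1, a coactivator related to PGC-1, had 0.53 ± 0.22 with overlapping groups, from 38.8 to 80.8 CPM among the controls. It was at 0.30 without shNC replicate 3, and at 0.85 without shNC replicate 2, where edgeR called it and TFB2M. POLRMT, the mitochondrial RNA polymerase, and the nuclear factor NRF1 had the lowest values, at -0.14 ± 0.12 and -0.12 ± 0.16, and POLRMT turned to 0.13 with the GC correction. Leaving out 1 library, whichever it was, moved NRF1 by over 1.5 times, to between -0.23 and -0.061. POLRMT was at -0.24 without shECM1 replicate 3, -0.056 without shNC replicate 1 and -0.071 without shECM1 replicate 2.

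Levels between genes were compared per kilobase of transcript (the median length of GENCODE basic protein-coding transcripts), over the mean of all 6 libraries. The MT-ND genes stood highest, from 966.3 CPM per kilobase for MT-ND2 to 3347 for MT-ND4L. Nuclear subunits reached 315.6 for NDUFB9, 228.0 for NDUFB4 and 199.1 for NDUFB11, a subunit of the ND4 module. These have 3, 12 and 1 pseudogenes by name, in the same order, and reads shared with them make these levels uncertain. Assembly factors ran from 6.10 for NDUFAF6 to 54.0 for NDUFAF2, which lay beside NDUFAF3 at 51.2. Subunits of 1 complex were thus not counted at equal levels. The lowest were NDUFA7 at 0.0908, NDUFA11 at 2.38 and NDUFA9 at 3.84 CPM per kilobase. The place of NDUFA9 rests on a transcript length of 4502.5 bases. Undivided, its means of 17.0 CPM in shNC and 17.5 in shECM1 lay above those of NDUFB8, at 7.27 and 8.80.

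NDUFA7, an N-module subunit, had 1 count in each of 4 libraries and 0 in the other 2, shECM1 replicates 2 and 3. In GENCODE release 29, 33.5% of its exonic bases also lie in an exon of the ribosomal protein gene RPS28 or of ENSG00000167774, a gene on its own strand with 0 counts in every library. For NDUFB8, at 11.7 CPM per kilobase, the shared part was 48.5%, with a gene on each strand. NDUFB11, at 199.1, shared 44.9% with RBM10 on the other strand. NDUFA11, NDUFA9, NDUFA13 and NDUFC2, at 2.38, 3.84, 16.6 and 18.6, shared bases with a gene on their own strand. So did NDUFC1, NDUFB2 and NDUFS3, at 39.8, 153.9 and 177.1. Subunits sharing only with the other strand ran from 50.6 for NDUFA2 to 315.6 for NDUFB9. The part of strand in these levels was not tested. The 20 nuclear subunits with no shared exonic base had a median of 100.3 and a range of 10.7 to 228.0 CPM per kilobase. The 17 with some had a median of 62.7 and a range of 0.0908 to 315.6. Counts of overlapping genes are uncertain, and NDUFC2-KCTD14, whose exons lie wholly within NDUFC2 and KCTD14, had 0 counts in every library.

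**Figure D5:**
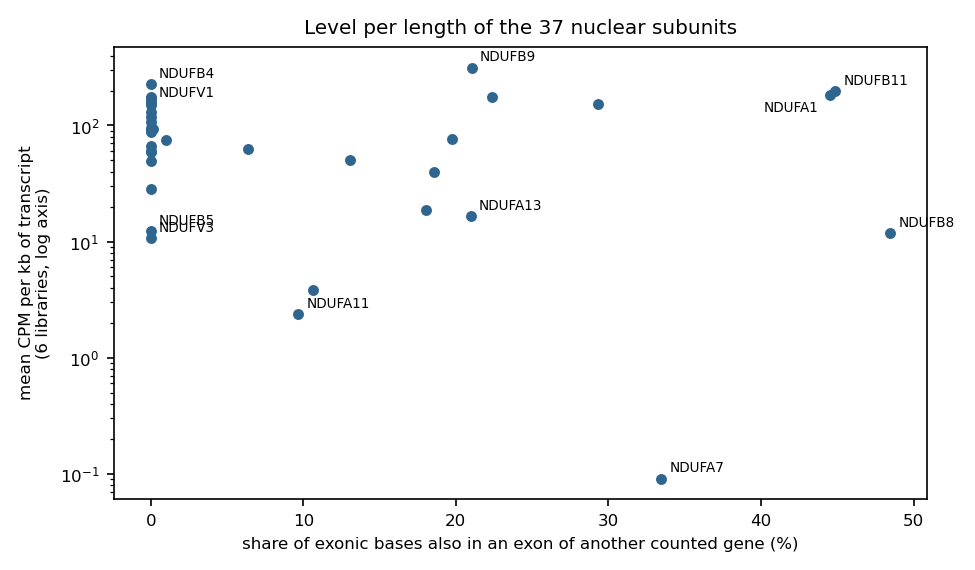
Mean CPM per kilobase of transcript (y axis, log scale) against the share of exonic bases that also lie in an exon of another gene in the table (x axis, percent) for the 37 nuclear subunits. NDUFA7 lies far below the rest at 0.0908, and NDUFB11 is at 199.1 with 44.9% of its exonic bases shared with a gene on the other strand. No single order joins the axes, and the plot does not part overlap by strand.

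Head-to-head promoters were common among the genes. Of the 46 nuclear members tested, 12 (26.1%) had a protein-coding gene starting on the other strand within 1000 bases upstream, against 9.83% of 12458 protein-coding genes tested. NDUFAF2 starts 56 bases from ERCC8, a DNA repair gene. ERCC8 was at 10.6, 13.1 and 11.2 CPM in shNC and 16.1, 13.7 and 14.2 CPM in shECM1, with no overlap and a log2 fold change of 0.33 ± 0.16 (SE), or 0.19 with the GC correction. NDUFS6 starts 34 bases from MRPL36 (0.39 ± 0.15) and NDUFB5 36 bases from MRPL47 (0.39 ± 0.11), both genes of the mitochondrial ribosome. The partner went the other way for NDUFAF8, whose neighbour TEPSIN was at -0.22 ± 0.15, and for NDUFA3, whose neighbour OSCAR was at -1.002 ± 0.27.

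Promoter sequences (250 bases before to 50 after the start, RefSeq, GRCh38.p14) were found for 40 of the 48 nuclear members. They were searched on both strands for GCGCATGCG, the core of the motif of NRF1, and for CCGGAAG, the core bound by ETS factors such as GABPA, both known regulators of respiratory genes. A full palindrome holds the first motif in both orientations, and no promoter of a member held both motifs. The NRF1 core was in 5 of the 40 (12.5%), against 3.72% of 10145 promoters of genes tested, and the ETS core in 6 (15%), against 19.4%. The median log2 fold change was 0.066 for 5 members with the NRF1 core and 0.21 for 33 without it. For the ETS core it was 0.22 for 6 with it and 0.20 for 32 without. The promoters of NDUFAF2 and NDUFAF4 are shown because these genes had the highest fold changes, and that of NDUFS6 because it is shared with MRPL36 and holds the NRF1 core. They lie at chr5:60944955-60945254 (plus strand), chr6:96897842-96898141 (minus strand) and chr5:1801157-1801456 (plus strand). Each is written 5′ to 3′ on the strand of its gene, with motif matches in capitals. There was no match in NDUFAF2, an ETS core in NDUFAF4 whose first base lies at -147 from the start, and an NRF1 core in NDUFS6 at -46.
NDUFAF2: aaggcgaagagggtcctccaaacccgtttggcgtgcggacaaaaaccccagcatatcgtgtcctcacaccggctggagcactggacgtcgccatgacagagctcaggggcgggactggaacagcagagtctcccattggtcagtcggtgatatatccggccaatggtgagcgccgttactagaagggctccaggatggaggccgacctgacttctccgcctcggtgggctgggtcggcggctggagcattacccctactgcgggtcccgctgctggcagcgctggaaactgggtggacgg
NDUFAF4: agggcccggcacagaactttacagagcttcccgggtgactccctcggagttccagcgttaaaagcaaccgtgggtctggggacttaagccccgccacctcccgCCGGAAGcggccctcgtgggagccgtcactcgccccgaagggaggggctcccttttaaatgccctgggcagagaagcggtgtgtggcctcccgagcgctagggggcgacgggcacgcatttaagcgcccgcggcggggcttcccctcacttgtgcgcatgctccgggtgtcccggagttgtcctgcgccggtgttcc
NDUFS6: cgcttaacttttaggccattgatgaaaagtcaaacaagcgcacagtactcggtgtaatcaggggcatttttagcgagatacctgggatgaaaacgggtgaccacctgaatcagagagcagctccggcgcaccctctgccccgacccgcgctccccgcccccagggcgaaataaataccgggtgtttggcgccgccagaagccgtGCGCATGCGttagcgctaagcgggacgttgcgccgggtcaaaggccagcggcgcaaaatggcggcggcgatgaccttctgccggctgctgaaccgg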

How the data were processed

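The authors deposited raw counts, 1 whole number per gene and library, and 0 of the 20476 rows named no gene. The submitters' processing notes name the tools fastp, STAR, featureCounts, Seurat and DESeq2 and the builds GRCh38 and hg38, with no roles, versions or settings. The labels' protocols describe both RNA extraction and droplet single-cell libraries, so a column may stand for bulk RNA or for summed cells. Each was analysed as 1 library. Separate cultures are not stated, and p-values then cover the spread of these libraries alone, which may be technical.

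Symbols were found for 20462 identifiers. Counts were fitted in R 4.3.3 with edgeR 4.0.16 (filterByExpr, TMM, glmQLFit and glmQLFTest on group, Benjamini-Hochberg over 12576 genes, threshold 0.05). SE is the fold change over the square root of F. Coordinates, lengths, GC content and exon overlap came from GENCODE release 29 (GRCh38), which may not be the authors' annotation. Alternatives used RLE factors, library size only, no count filter, DESeq2 1.42.0, limma-voom (limma 3.58.1), the replicate number as a block, a loess trend on GC (span 0.5) as offset, and each library left out. The procedure was also run on simulated counts drawn from mean levels and fitted dispersions. These held no GC trend and no control unlike the others, so that run is no check on either.

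Members and gene lists were chosen with earlier results of these data known. Named by rule were the NDUFAF and MT-ND genes, the 5 highest and 5 lowest fold changes and the 3 highest and 3 lowest levels per length among nuclear subunits, NDUFA12, ERCC8, ECM1, and the 2 highest and 2 lowest of each list of other genes. 1 nuclear subunit that this rule names is not reported here. Others were named after their values were seen. A planned comparison of the NDUFAF2 and NDUFA12 proteins was not made. With 3 libraries a group no permutation test was run.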

Additional observations from a re-analysis of the deposited data

How the results depend on the processing

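The medians of nuclear subunits (0.15 to 0.24), assembly factors (0.27 to 0.36) and MT-ND genes (-0.24 to -0.065) kept their sign in every alternative and moved by less than 1 SD between libraries. The number of tested members with a positive log2 fold change ranged from 41 to 47. Counts of calls did move. edgeR with no count filter called 505 genes and 2 members, DESeq2 called 700 genes and 2 members, and leaving out 1 library gave 0 to 3037 genes and 0 to 11 members. The upper values came without shNC replicate 2, and leaving out any other library gave 0. The replicate block called 0 genes and 0 members and gave NDUFAF2 a log2 fold change of 0.68. Same-numbered libraries did not deviate together (correlations of -0.070, -0.046 and -0.18 for numbers 1, 2 and 3). With so few libraries this gave no sign of pairing by number but cannot exclude it. The main fit also called 0 genes, so the block had no call to remove. Of 42 named genes, 10 had the other sign in some alternative, all with a value between -0.14 and 0.10 as reported. With the GC offset the values were 0.11 for DMAC2, -0.055 for NDUFA12, -0.026 for NDUFA9, -0.028 for NDUFAF1, -0.025 for NDUFAF5, -0.043 for NDUFB4 and 0.13 for POLRMT. With the GC offset and the replicate block they were 0.10, -0.052, -0.032, -0.032, -0.023, -0.040 and 0.13 in the same order. With library size only, DMAC2 was at 0.019. Leaving out 1 library gave -0.13 to 0.091 for DMAC2, -0.066 to 0.18 for MT-CO3, -0.052 to 0.28 for NDUFA11, -0.043 to 0.11 for NDUFA12, -0.056 to 0.15 for NDUFA9, -0.040 to 0.14 for NDUFAF1, -0.014 to 0.11 for NDUFB4 and -0.090 to 0.17 for NDUFS7. The cause of these changes was not tested.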
